A study of Mus musculus with 8 samples.

Results

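The surface, adhesion and progenitor marker genes described here were taken by their symbols: Epcam, Prom1, Cd44, Cd24a, Ezr, Msln, Pigr, Bicc1 and Pkhd1. They are 9 of 29621 genes covered by bulk RNA sequencing of mouse pancreas, and all 9 were among the 14267 genes with enough reads to be tested. KPC-OG and KPC pancreas had 4 libraries each, from C57BL/6 animals aged 42 days (6 weeks). KPC-OG mice carried p48-Cre, a lox-stop-lox oncogenic allele that Cre activates, floxed Trp53 and a lox-stop-lox OG allele at the R26 locus. KPC mice carried the same alleles except OG, so Cre, the oncogenic allele and the Trp53 deletion were shared by both groups. The p48 locus is Ptf1a, which is active in the pancreatic epithelial lineage, so stromal and immune cells of these organs are not targeted by it. The series title calls the model antigenic, and expression of the OG allele itself was not analysed here. Since the labels do not state separate animals, p-values reflect only the spread between libraries, which may be technical.

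Epcam is a homophilic adhesion molecule found on most simple epithelia, and Prom1, Cd44 and Cd24a are used with it to isolate progenitor-like cells from pancreas and pancreatic tumours. Cd44 binds hyaluronan, its transcripts carry different sets of variable exons, and its short intracellular tail is tied to actin by ezrin, the product of Ezr. Msln is best known from mesothelium and from human pancreatic cancer, Pigr carries dimeric immunoglobulin A across epithelium, and Bicc1 and Pkhd1 are genes whose loss gives cystic ducts and tubules.

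Libraries held 13671606 to 18292115 estimated reads in KPC-OG and 7373286 to 11292570 in KPC. Lars2 alone took 3.73% to 7.11% of reads in KPC-OG and 20.8% to 29.95% in KPC. Levels below are counts scaled to library size by TMM, in CPM, which sets the typical gene equal between libraries, and log2 fold changes (KPC-OG over KPC) are given ± their standard error. Scaled by library size alone, the median gene had a log2 fold change of 1.82, a shift of 1.74, so each direction here is relative to the typical gene. The summed level of 10 acinar genes was 86570, 57155, 167604 and 47071 CPM in KPC-OG and 316078 to 515723 CPM in KPC, and 8 of the 10 fell, while with library sizes alone 3 fell and 1 rose. Within KPC-OG, replicate 3 had the highest acinar sum and the lowest level of every one of the 9 genes except Msln and Pigr, though for Pkhd1 by little (29.1 CPM, against 29.5 to 35.3 CPM), and replicates 2 and 3 had the highest sums of 10 liver and intestine genes (324 and 328 CPM, against 77.0 and 90.3 CPM in replicates 1 and 4, and 17.5 to 38.5 CPM in KPC). Genes of this list differed in pattern. Alb was at 177 and 194 CPM in replicates 2 and 3, 4.54 and 5.51 CPM in replicates 1 and 4, and 2.63 to 6.49 CPM in KPC. Lgals4 was at 36.1 to 71.4 CPM over all KPC-OG libraries and 3.38 to 11.7 CPM in KPC. The part of these features in the results below was not tested, and values without replicate 3 are given beside results that they move.

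In KPC-OG 5 of the 9 genes were higher, none was lower and 4 did not pass edgeR's quasi-likelihood test at an adjusted p under 0.05. Among all genes tested, 17.4% were higher and 16.6% lower. At an unadjusted p under 0.05 Pkhd1 was lower too, and neither DESeq2 nor limma-voom called any of the 9 lower. The median log2 fold change was 0.67 over the 9 genes and 0.09 over all genes tested. The 9 genes were chosen by name and with earlier results known, so this median and the count describe them only. Levels of the groups did not overlap for 4 of the 9, all higher in KPC-OG, where 17.6% of all genes did not overlap in that direction. Epcam, Cd44 and Ezr rose about 3-fold, Prom1 and Msln rose by less, and Cd24a, Pigr, Bicc1 and Pkhd1 did not pass the test. In bulk tissue, fewer cells of a type and less RNA per cell cannot be told apart.

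**Figure D1:**
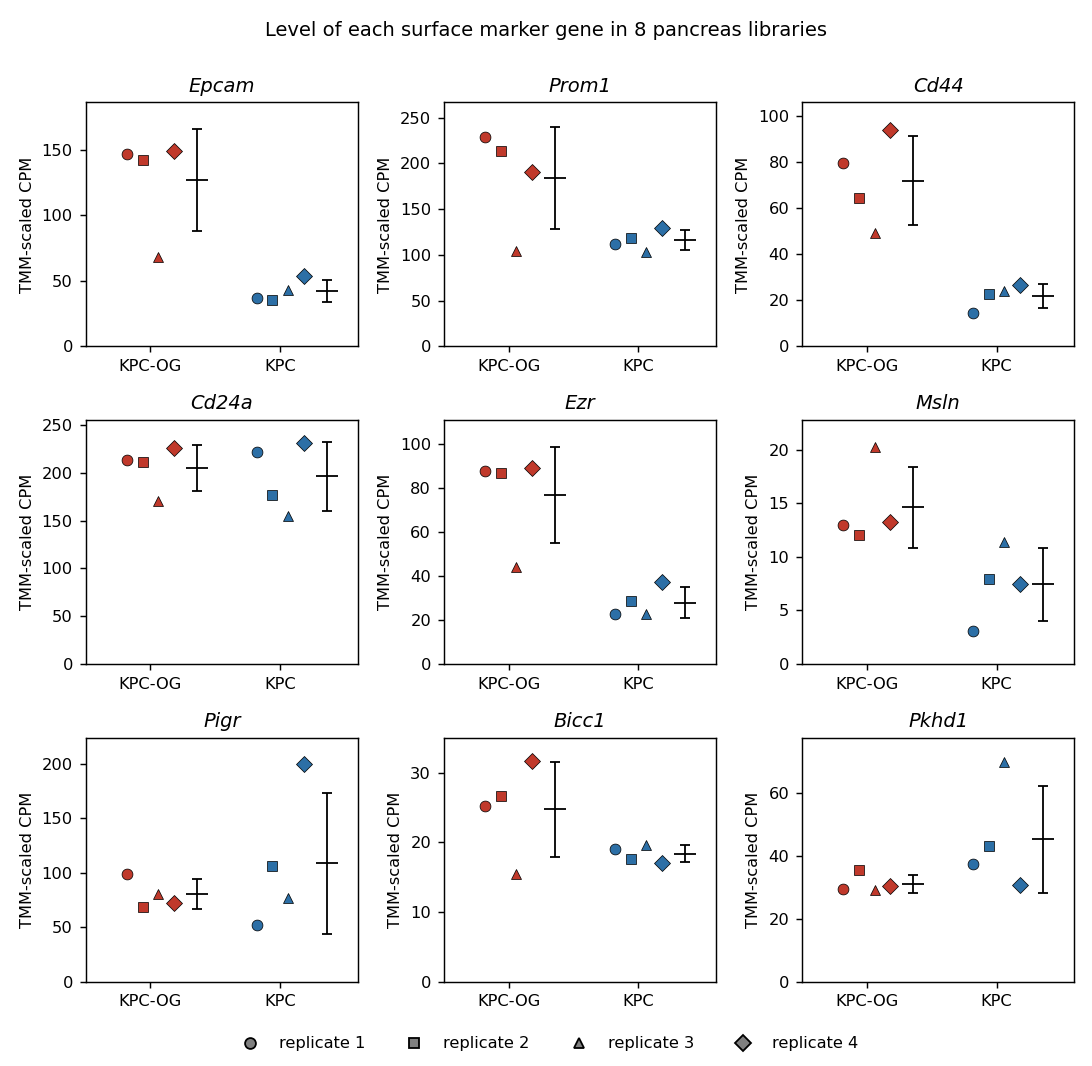
TMM-scaled CPM of each gene in each library, KPC-OG on the left and KPC on the right of each panel, with one symbol per replicate and the mean ± SD of the 4 libraries beside them. The groups did not overlap for Epcam, Cd44, Ezr and Msln, and KPC-OG replicate 3 (triangle) was at 68.6 CPM of Epcam while the other KPC-OG libraries were at 143 to 149 CPM.

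Epcam (ENSMUSG00000045394, GRCm38 chromosome 17, 87635979 to 87651129, plus strand) had 147, 143, 68.6 and 149 CPM in KPC-OG replicates 1 to 4, against 36.7, 35.3, 42.7 and 53.7 CPM in KPC replicates 1 to 4. Every KPC-OG library was above every KPC library, and replicate 3 was the lowest of KPC-OG. The log2 fold change was 1.59 ± 0.25 (3.01-fold, edgeR adjusted p = 0.00167), with means of 127 ± 39.0 CPM in KPC-OG and 42.1 ± 8.38 CPM in KPC (SD, n = 4 each). Without KPC-OG replicate 3 it was 1.81 ± 0.15 (edgeR adjusted p = 3.75e-05). Epcam has a single transcript in the files, so its gene level does not depend on how reads were split between transcripts.

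The other epithelial adhesion and identity genes did not all move with Epcam. Of 19 tested, 5 rose and 2 fell, and 12 did not pass the test, with a median log2 fold change of 0.16. The simple-epithelial keratins Krt19 and Krt8 rose by 2.46 ± 0.28 and 1.39 ± 0.23 (edgeR adjusted p = 5.58e-04 and 0.00186). The transcription factor Elf3 and the tight junction gene Cldn7 rose by 0.99 ± 0.20 and 0.97 ± 0.21 (edgeR adjusted p = 0.00488 and 0.0058). Cdh1, which encodes E-cadherin and was chosen after its value was seen, had a log2 fold change of -0.12 ± 0.20 (edgeR adjusted p = 0.664). With library sizes alone all 19 were called higher, Spint1 and Prss8 included, the genes that fell under TMM.

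Cd44 (ENSMUSG00000005087, chromosome 2, 102811141 to 102901665, minus strand) had 79.5, 64.7, 49.4 and 94.1 CPM in KPC-OG, against 14.3, 22.7, 23.9 and 26.7 CPM in KPC. The lowest KPC-OG library, replicate 3, was still above the highest KPC library. The log2 fold change was 1.72 ± 0.24 (3.29-fold, edgeR adjusted p = 0.00103), with means of 71.9 ± 19.3 CPM in KPC-OG and 21.9 ± 5.32 CPM in KPC (SD, n = 4 each), and without KPC-OG replicate 3 it was 1.87 ± 0.21. Cd44 is also made by leukocytes and fibroblasts. The summed level of 12 leukocyte genes was 607 to 972 CPM in KPC-OG and 179 to 529 CPM in KPC. Of 11 tested, 3 were higher (Cd68, Lyz2 and Csf1r) and 8 did not pass. The largest member of this sum was Lyz2, with means of 504 CPM in KPC-OG and 166 CPM in KPC. Ptprc, another gene of the list, had a log2 fold change of 0.19 ± 0.61 (edgeR adjusted p = 0.838). The sum thus does not show a rise across leukocyte genes. For 8 fibroblast genes the summed level was 1637 to 4631 CPM in KPC-OG and 975 to 1296 CPM in KPC, with 7 of 8 higher. Which cells held the Cd44 reads was not tested.

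The annotated Cd44 gene has 9 transcripts, of which 7 carry at least 1 of 10 variable exons, and Cd44-203 is the standard form of 9 exons with none. The last variable exon, of 207 bases, is the only one present in all 7, so it is shown first, from chr2:102831330-102831536 on the minus strand (GRCm38, GENCODE M21), in capitals, followed by 15 bases of the next constitutive exon. The joins that set the standard form apart from Cd44-207, the transcript with the largest mean share of reads, are shown next, with 30 bases on each side and the downstream exon in capitals.
Cd44 exon in all variable-exon transcripts: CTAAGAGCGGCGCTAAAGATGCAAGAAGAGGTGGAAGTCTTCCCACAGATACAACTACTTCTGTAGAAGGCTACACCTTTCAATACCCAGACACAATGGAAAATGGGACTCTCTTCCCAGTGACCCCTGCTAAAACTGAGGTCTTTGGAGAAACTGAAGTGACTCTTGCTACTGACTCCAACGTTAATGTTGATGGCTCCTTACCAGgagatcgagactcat
Cd44-203 junction: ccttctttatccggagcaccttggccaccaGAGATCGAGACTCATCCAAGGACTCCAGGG
Cd44-207 junction: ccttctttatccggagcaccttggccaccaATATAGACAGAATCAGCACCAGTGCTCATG
The upstream exon is the same in both joins. In Cd44-203 it runs straight into the constitutive exon that begins with the bases shown in lower case after the 207-base exon.

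Transcripts with variable exons took 84.8%, 75.1%, 82.2% and 88.4% of Cd44 reads in KPC-OG (2613, 2495, 754 and 3162 reads), against 79.7%, 74.3%, 74.4% and 85.2% in KPC (75, 121, 90 and 158 reads). The groups overlapped, with means of 82.6% ± 5.64 in KPC-OG and 78.4% ± 5.19 in KPC (SD, n = 4 each), a difference of 4.24 percentage points (exact two-sided permutation p = 0.286). The 95% Wilson interval was 83.4% to 86.1% in KPC-OG replicate 1 and 69.6% to 87.5% in KPC replicate 1, and these intervals cover counting error only. The difference was smaller than the spread between libraries of either group, which does not show that the shares were equal. Reads were assigned to transcripts by estimation, and Cd44-201 and Cd44-207 have longer annotated ends than Cd44-203, so reads from those ends count as variable-exon transcripts.

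Shares of single transcripts were uneven between the KPC libraries, which had few Cd44 reads, and whether depth set this was not tested. Cd44-207, with 5 variable exons, took 39.1% ± 3.88 of Cd44 reads in KPC-OG and 35.6% ± 26.6 in KPC, where replicate 1 had none (SD, n = 4 each). Cd44-201, with all 10 variable exons, took 16.4% ± 3.71 in KPC-OG and 17.3% ± 34.5 in KPC, and in KPC it was at 69.1% in replicate 1 and at 0 reads in the other 3 libraries. Cd44-202 took 15.5% ± 7.79 in KPC-OG and 13.6% ± 12.9 in KPC. The standard form Cd44-203 took 12.4% ± 4.85 in KPC-OG and 15.1% ± 2.85 in KPC, and the retained-intron transcript Cd44-209 took 5.004% ± 0.991 in KPC-OG and 6.53% ± 3.26 in KPC. In KPC the assignment of reads among the long variable-exon forms thus differed between libraries by more than between the groups, while the standard form was found in all 8 libraries.

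**Figure D2:**
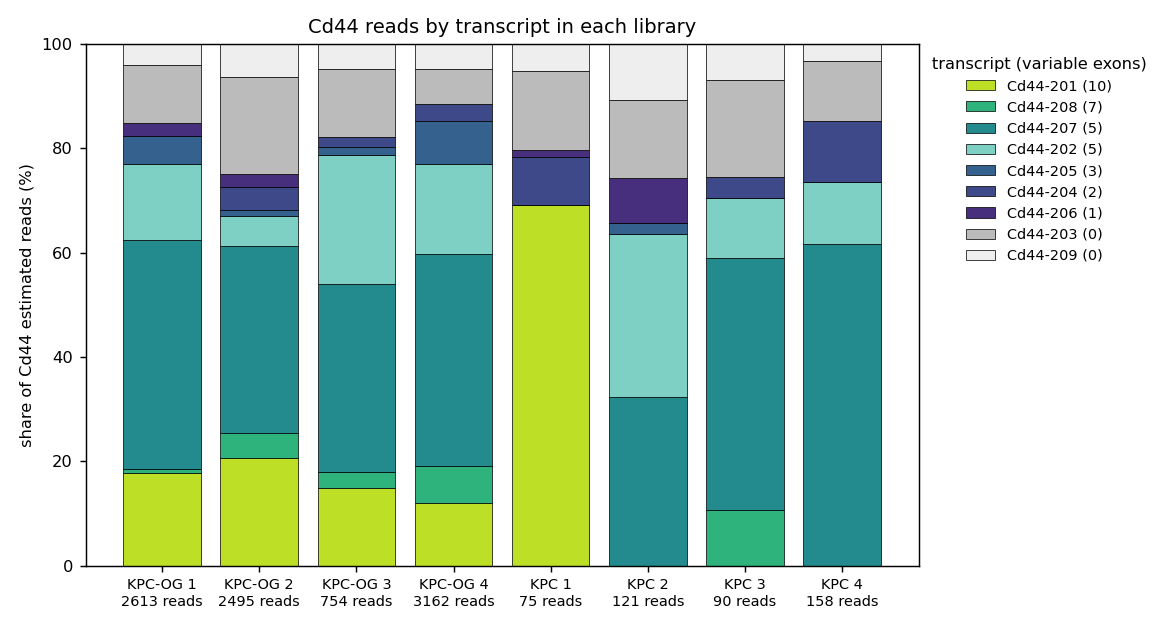
Share of Cd44 estimated reads (%) in each of the 9 transcripts, by library, with the number of Cd44 reads under each bar and the number of variable exons of each transcript in the key. Coloured segments, the transcripts with variable exons, took 75.1% to 88.4% of reads in KPC-OG and 74.3% to 85.2% in KPC, grey segments have no variable exon, and KPC replicate 1 is the only library with most reads in Cd44-201.

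Genes of proteins known to set Cd44 splicing moved in both directions relative to the typical gene, while with library sizes alone all 10 were called higher. Of 10 tested, 3 rose, 1 fell and 6 did not pass. Esrp1, an epithelial splicing factor that favours variable exons, had 27.3, 22.9, 25.3 and 24.9 CPM in KPC-OG, against 43.7, 32.3, 32.6 and 38.8 CPM in KPC. The groups did not overlap, and Esrp1 fell by 0.56 ± 0.13 on the log2 scale (edgeR adjusted p = 0.00906), while with library sizes alone it was called higher at 1.19 (edgeR adjusted p = 5.3e-04). Rbfox2, Srsf1 and Hnrnpa1 rose by 0.52 ± 0.15, 0.52 ± 0.15 and 0.46 ± 0.13 (edgeR adjusted p = 0.0204, 0.0244 and 0.0224). Among hyaluronan enzymes and other Cd44 ligands 4 of 10 tested rose and none fell, with a median log2 fold change of 0.91. At an unadjusted p under 0.05 there were 6 that rose, with DESeq2 5 and with limma-voom 3, and none that fell in each case. Spp1, which encodes the Cd44 ligand osteopontin, had 572, 605, 292 and 698 CPM in KPC-OG, against 169, 150, 190 and 182 CPM in KPC (log2 fold change 1.65 ± 0.26, edgeR adjusted p = 0.00152). Like Epcam, Spp1 was lowest in replicate 3 among the KPC-OG libraries and did not overlap between the groups. The hyaluronan-binding proteoglycan Vcan rose by 1.46 ± 0.25, the hyaluronidase gene Hyal2 by 0.86 ± 0.21 and the hyaluronan synthase Has2 by 2.42 ± 0.70 (edgeR adjusted p = 0.0022, 0.0121 and 0.0234), although Has2 was at 0 reads in KPC replicates 1 and 3.

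Ezr (ENSMUSG00000052397, chromosome 17, 6738041 to 6782784, minus strand) encodes ezrin, which links membrane proteins such as Cd44 to the actin of microvilli. It had 87.7, 86.7, 44.3 and 89.0 CPM in KPC-OG, against 22.7, 28.7, 22.8 and 37.3 CPM in KPC. The groups did not overlap, and KPC-OG replicate 3 again stood below the rest of its group. Ezr rose by a log2 fold change of 1.46 ± 0.25 (2.75-fold, edgeR adjusted p = 0.00227), with means of 76.9 ± 21.8 CPM in KPC-OG and 27.9 ± 6.88 CPM in KPC (SD, n = 4 each), and without KPC-OG replicate 3 it was 1.66 ± 0.17 (edgeR adjusted p = 9.14e-05). The gene overlaps Sytl3 on the other strand, and the strand used in counting is not stated.

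The full-length transcript Ezr-201 rose by 1.46 ± 0.27 in the fit over transcripts (edgeR adjusted p = 0.0184 over 26789 transcripts). The short transcript Ezr-202 took 9.94% ± 1.88 of Ezr reads in KPC-OG and 2.36% ± 2.16 in KPC (SD, n = 4 each), with 333, 307, 52 and 340 reads in KPC-OG, against 0, 3, 2 and 12 reads in KPC. Its log2 fold change of 3.41 ± 0.88 just missed the threshold (edgeR adjusted p = 0.051). Of the 33 transcripts of the 9 genes 23 could be tested, and 3 passed, all higher, where 4.98% of all transcripts tested rose and 3.95% fell. Without KPC-OG replicate 3 there were 6 that passed, and without KPC-OG replicate 1, 2 or 4 none. With all libraries, the other 2 that rose were Epcam-201, at 1.71 ± 0.29, and the standard form Cd44-203, at 1.49 ± 0.34 (edgeR adjusted p = 0.0149 and 0.0327).

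The RefSeq promoter window of Ezr (GRCm38.p6, minus strand, chr17:6782781-6782852 shown) holds the letters TGANTCA, those of the AP-1 site, 32 to 26 bases before the annotated start, given in capitals.
Ezr promoter stretch: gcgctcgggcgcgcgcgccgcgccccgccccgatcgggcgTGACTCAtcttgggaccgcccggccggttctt
These letters, searched on both strands, were found in 2565 of 32851 promoter windows (7.81%), and among the 6 genes with a promoter in the table they were also in Prom1, so the match is a description of the sequence only.

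Other ERM and microvillus genes moved in both directions. Of 14 tested 3 rose, 2 fell and 9 did not pass, with a median log2 fold change of -0.10. Vil1 and Myo1a, which encode villin and a brush border myosin, rose by 2.34 ± 0.32 and 2.66 ± 0.53 (edgeR adjusted p = 0.00107 and 0.00441). The related gene Rdx (radixin) and the tumour suppressor Nf2 (merlin) fell by 0.70 ± 0.14 and 0.87 ± 0.11 on the log2 scale (edgeR adjusted p = 0.0043 and 7.74e-04), but with library sizes alone both were called higher, at 1.06 and 0.87.

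Prom1 (ENSMUSG00000029086, chromosome 5, 43993620 to 44102032, minus strand) encodes prominin-1, or CD133, a pentaspan protein of apical membrane protrusions. It had 229, 213, 104 and 191 CPM in KPC-OG, against 112, 118, 103 and 129 CPM in KPC. In KPC-OG 3 libraries were above all of KPC, and replicate 3 lay inside the KPC range. Prom1 rose by a log2 fold change of 0.67 ± 0.23 (1.59-fold, edgeR adjusted p = 0.0442), with means of 184 ± 55.7 CPM in KPC-OG and 116 ± 10.9 CPM in KPC (SD, n = 4 each). Without KPC-OG replicate 3 it was 0.88 ± 0.14 (edgeR adjusted p = 8.03e-04). Without any other library the call was lost (adjusted p up to 0.119), as it was with limma-voom (adjusted p = 0.0904). The transcripts Prom1-203 and Prom1-207 held 60.0% ± 3.62 and 33.9% ± 4.70 of Prom1 reads in KPC-OG and 58.9% ± 5.54 and 33.3% ± 10.04 in KPC (SD, n = 4 each). An antisense gene, Gm16401, overlaps Prom1.

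Cd24a (ENSMUSG00000047139, chromosome 10, 43578284 to 43584265, plus strand) encodes a small glycosylated protein anchored to the outer membrane by lipid. It had 214, 211, 170 and 226 CPM in KPC-OG, against 222, 177, 155 and 231 CPM in KPC. The groups overlapped over nearly their whole range. Its log2 fold change was 0.07 ± 0.18 (edgeR adjusted p = 0.804), with means of 205 ± 24.3 CPM in KPC-OG and 196 ± 36.3 CPM in KPC (SD, n = 4 each). Among 13 other progenitor and stem cell genes that could be tested 5 rose, 1 fell and 7 did not pass, with a median of 0.39. Aldh1a3, a retinaldehyde dehydrogenase, rose by 2.48 ± 0.23, the ectonucleotidase gene Nt5e by 2.01 ± 0.32 and the tetraspanin gene Cd9 by 1.26 ± 0.20 (edgeR adjusted p = 4.65e-04, 0.00162 and 0.00167). The intermediate filament gene Nes fell by 1.504 ± 0.28 on the log2 scale (edgeR adjusted p = 0.00321), a direction that turned with library sizes alone (0.18, adjusted p = 0.545).

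Msln (ENSMUSG00000063011, chromosome 17, 25748613 to 25754378, minus strand) encodes mesothelin, a lipid-anchored protein of mesothelial cells. It had 13.0, 12.05, 20.2 and 13.3 CPM in KPC-OG, against 3.06, 7.89, 11.4 and 7.43 CPM in KPC. The groups did not overlap, although the lowest KPC-OG library and the highest KPC library were close. Replicate 3, the lowest KPC-OG library for Epcam, was the highest for Msln. Msln rose by a log2 fold change of 0.99 ± 0.32 (1.99-fold, edgeR adjusted p = 0.0365), with means of 14.6 ± 3.77 CPM in KPC-OG and 7.45 ± 3.42 CPM in KPC (SD, n = 4 each). Without KPC-OG replicate 3 it was 0.81 ± 0.31 and no longer passed (edgeR adjusted p = 0.0621), and leaving out any other library except KPC replicate 3 also lost the call (adjusted p up to 0.0812). In KPC it rested on 16, 42, 43 and 44 estimated reads.

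Of 10 other mesothelial genes 8 could be tested, of which 3 rose, none fell and 5 did not pass. Those 5 had log2 fold changes of 0.13 to 0.79. At an unadjusted p under 0.05 also 3 rose and none fell, while limma-voom called none. Their summed level was 29.95, 20.5, 36.3 and 60.2 CPM in KPC-OG, against 13.4, 30.1, 36.9 and 15.4 CPM in KPC. The sums overlapped. In KPC the libraries had the same order by Msln as by this sum. In KPC-OG the order was also the same except at the top, where replicate 3 had the most Msln and replicate 4 the highest sum. The mesothelial transcription factor Wt1 rose by 1.45 ± 0.34, the secreted Wnt signal enhancer Rspo1 by 1.52 ± 0.34 and the lipoxygenase gene Alox15 by 1.52 ± 0.50 (edgeR adjusted p = 0.0092, 0.00713 and 0.039), while Krt5 was at 0 reads in every library. Whether Msln reads came from mesothelium or epithelium was not tested.

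Pigr (ENSMUSG00000026417, chromosome 1, 130826684 to 130852249, plus strand) encodes the polymeric immunoglobulin receptor. It had 99.2, 68.8, 80.5 and 71.9 CPM in KPC-OG, against 52.1, 106, 76.4 and 200 CPM in KPC. The KPC-OG libraries all lay inside the wider range of KPC, which was set by its replicates 1 and 4. Pigr had a log2 fold change of -0.44 ± 0.36 (edgeR adjusted p = 0.372), with means of 80.1 ± 13.7 CPM in KPC-OG and 109 ± 64.6 CPM in KPC (SD, n = 4 each), and it was 0.03 ± 0.24 without KPC replicate 4. None of 5 immunoglobulin and plasma cell genes that could be tested passed in either direction with edgeR, at an unadjusted p under 0.05, or with DESeq2 or limma-voom. With library sizes alone 3 of the 5 were called higher, Igha among them at 2.80 (edgeR adjusted p = 0.0258). Igha, the heavy chain of the immunoglobulin that Pigr carries, had 15.3, 64.2, 54.0 and 47.1 CPM in KPC-OG, against 7.83, 33.8, 1.86 and 38.7 CPM in KPC (log2 fold change 1.11 ± 0.76, edgeR adjusted p = 0.300), with overlap between the groups. Ighm had a log2 fold change of 0.37 ± 0.97 (edgeR adjusted p = 0.800).

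Bicc1 (ENSMUSG00000014329, chromosome 10, 70922832 to 71159700, minus strand) encodes an RNA-binding protein whose loss gives polycystic kidneys in mice. It had 25.2, 26.6, 15.5 and 31.6 CPM in KPC-OG, against 19.1, 17.7, 19.6 and 17.05 CPM in KPC. Replicate 3 of KPC-OG was below all of KPC and the other 3 were above. The log2 fold change was 0.44 ± 0.20 (edgeR adjusted p = 0.114), with means of 24.7 ± 6.77 CPM in KPC-OG and 18.4 ± 1.21 CPM in KPC (SD, n = 4 each). Without KPC-OG replicate 3 it was 0.62 ± 0.13 and passed (edgeR adjusted p = 0.0046). Its main transcript Bicc1-203 held 75.5% ± 5.01 of reads in KPC-OG and 71.3% ± 14.0 in KPC (SD, n = 4 each), and the antisense gene 4930533K18Rik overlaps the locus.

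Pkhd1 (ENSMUSG00000043760, chromosome 1, 20057779 to 20618064, minus strand) encodes fibrocystin, a protein of the primary cilium that is mutated in human recessive polycystic kidney disease with cystic bile ducts. It had 29.5, 35.3, 29.1 and 30.3 CPM in KPC-OG, against 37.4, 43.0, 69.8 and 30.7 CPM in KPC. KPC-OG was narrow, and only its replicate 2 reached into the range of KPC, at whose low end replicate 4 stood. The log2 fold change was -0.53 ± 0.22 (edgeR unadjusted p = 0.0371, adjusted p = 0.0892), with means of 31.1 ± 2.89 CPM in KPC-OG and 45.2 ± 17.1 CPM in KPC (SD, n = 4 each). Without KPC replicate 4 it was -0.69 ± 0.21 and passed (edgeR adjusted p = 0.0376), without KPC replicate 3 it was -0.26 ± 0.15 (edgeR adjusted p = 0.208), and with a transcript length offset it was -0.29 ± 0.37 (edgeR adjusted p = 0.594). The long transcript Pkhd1-201 held 94.1% ± 1.66 of reads in KPC-OG and 97.95% ± 2.46 in KPC (SD, n = 4 each). The pseudogene Gm15795 overlaps the locus on the same strand.

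Of 16 genes of cilia and polycystic disease other than Pkhd1 and Bicc1, 4 rose and 12 did not pass, with a median log2 fold change of 0.43. At an unadjusted p under 0.05 there were 7 that rose, with DESeq2 4 and with limma-voom only 2. None fell in any of these. Dzip1l, Kif3a, Tmem67 and Invs, all cilium genes, rose by 1.37 ± 0.28, 0.67 ± 0.21, 0.68 ± 0.22 and 0.52 ± 0.16 (edgeR adjusted p = 0.00502, 0.0316, 0.0381 and 0.0304).

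**Figure D3:**
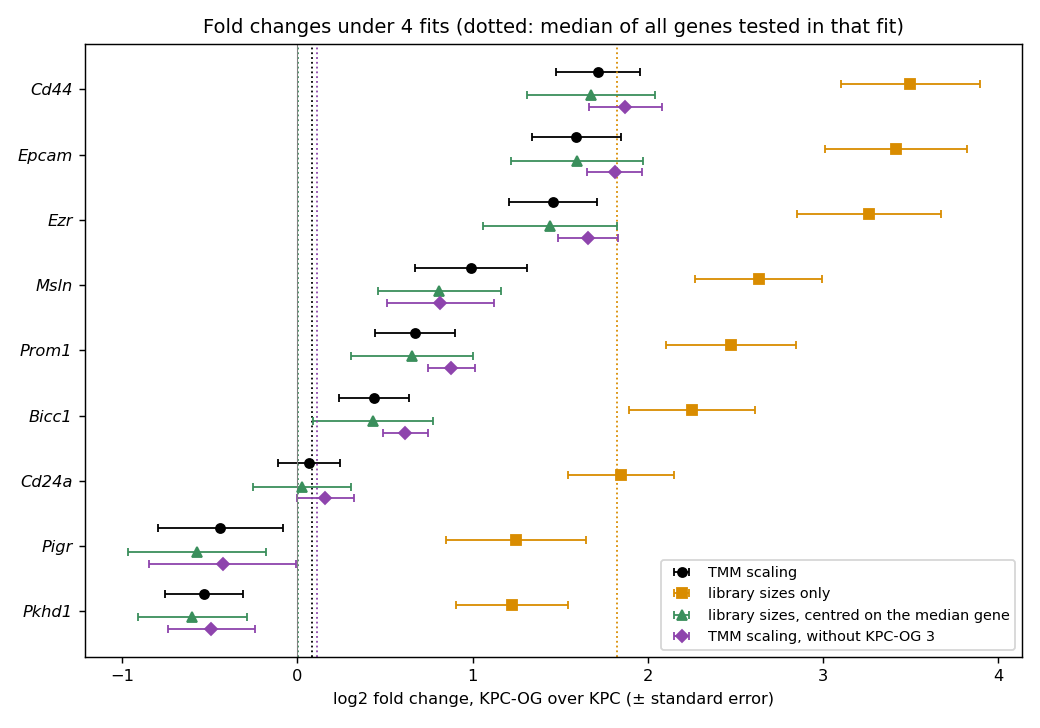
Log2 fold change (KPC-OG over KPC, ± standard error) of the 9 genes under TMM scaling, with library sizes only, with library sizes centred on the median gene, and under TMM without KPC-OG replicate 3, with the median of all genes tested in each fit as a dotted line. The order of the genes changes little while the median of all genes moves by 1.74 with library sizes only, and Pigr and Pkhd1 lie on the other side of 0 there.

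The scaling decided the direction of the lowest genes but changed their order little. With library sizes alone all 9 genes were called higher, Pkhd1 at 1.22 (edgeR adjusted p = 0.00193) and Pigr at 1.25 (edgeR adjusted p = 0.00917), when 13078 genes were called higher and 99 lower. Against the median of 1.82 in that fit, Pkhd1 and Pigr were still below the typical gene. Centred on the median gene, Epcam, Cd44 and Ezr kept their calls at 1.59, 1.68 and 1.44 (edgeR adjusted p = 0.01, 0.00593 and 0.0198), and Prom1 and Msln lost theirs at 0.65 and 0.81 (adjusted p = 0.231 and 0.132). Within TMM, Cd44 stood at the 94.8th percentile of all log2 fold changes, Epcam at the 93.8th, Ezr at the 92.6th, Pigr at the 20.6th and Pkhd1 at the 16.9th.

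A comparison that needs no scaling between libraries sets each gene against Epcam in the same library. Ezr had 0.596, 0.608, 0.645 and 0.596 reads per Epcam read in KPC-OG, against 0.618, 0.811, 0.533 and 0.695 in KPC, and the groups overlapped (log2 difference -0.10, exact two-sided permutation p = 0.514). In KPC-OG the ratio was nearly fixed, including in replicate 3. Cd44 had 0.541, 0.453, 0.720 and 0.631 reads per Epcam read in KPC-OG, against 0.391, 0.645, 0.558 and 0.496 in KPC (log2 difference 0.17, exact two-sided permutation p = 0.486). Msln had 0.0881, 0.0845, 0.295 and 0.0890 in KPC-OG, against 0.0830, 0.222, 0.267 and 0.138 in KPC (log2 difference -0.45, exact two-sided permutation p = 0.486). The Msln ratio depended on single libraries, with a log2 difference of -0.89 without KPC-OG replicate 3 (exact permutation p = 0.143), -0.77 without KPC replicate 1 and -0.21 without KPC replicate 3. These p-values do not show that the ratios were equal, since 4 libraries against 4 leave wide room.

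The other 5 genes had fewer reads per Epcam read in KPC-OG than in KPC without overlap. Pkhd1 had 0.200, 0.248, 0.425 and 0.203 in KPC-OG, against 1.02, 1.21, 1.64 and 0.573 in KPC (log2 difference -2.02). Pigr had 0.674, 0.482, 1.17 and 0.481 in KPC-OG, against 1.42, 2.999, 1.79 and 3.72 in KPC (log2 difference -1.82). Both genes were highest, relative to Epcam, in replicate 3 among the KPC-OG libraries. Cd24a had 1.45, 1.48, 2.48 and 1.52 in KPC-OG, against 6.06, 5.003, 3.63 and 4.31 in KPC (log2 difference -1.47). Bicc1 had 0.172, 0.186, 0.225 and 0.212 in KPC-OG, against 0.520, 0.4998, 0.461 and 0.317 in KPC (log2 difference -1.16). Prom1 had 1.56, 1.497, 1.52 and 1.28 in KPC-OG, against 3.07, 3.35, 2.42 and 2.41 in KPC (log2 difference -0.93). Each of the 5 had an exact two-sided permutation p of 0.0286, the smallest that 4 against 4 allows. Adjusted over the ratios of all genes tested this p became 0.0516. That was the lowest adjusted p any gene could reach, so no ratio could have passed this adjustment. Leaving out 1 library raised the exact permutation p to 0.0571 for Pigr (KPC replicate 2, 3 or 4), Pkhd1 (KPC-OG replicate 1 or 4) and Bicc1 (KPC-OG replicate 1). Because Epcam itself was high in KPC-OG, 54.3% of all other genes were lower per Epcam read without overlap and the median log2 difference over all genes was -1.42, so the count of 5 in 8 is near the background. Only 1.14% of genes were higher without overlap, and none of the 8 was.

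**Figure D4:**
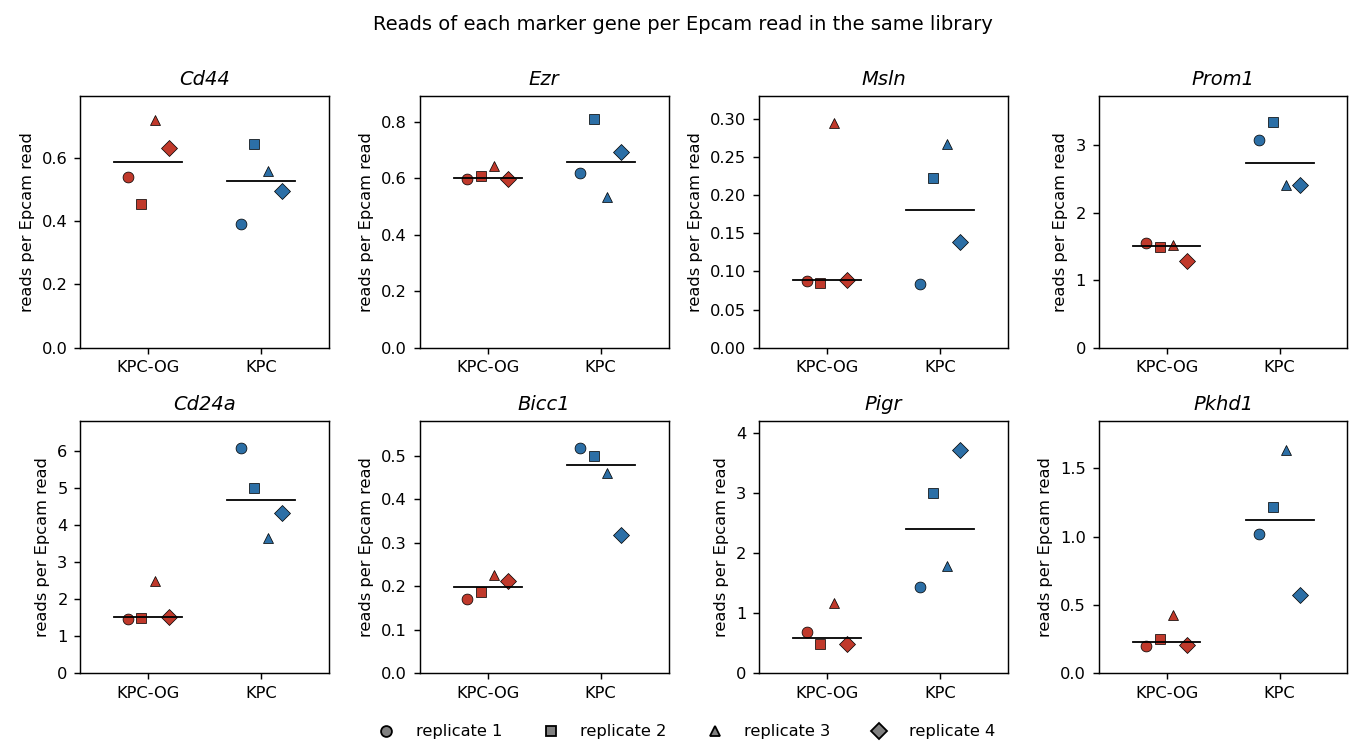
Estimated reads of each gene per Epcam read in the same library, KPC-OG on the left and KPC on the right of each panel, with one symbol per replicate and the median of the 4 libraries as a line. The groups overlap for Cd44, Ezr and Msln and do not overlap for Prom1, Cd24a, Bicc1, Pigr and Pkhd1, where KPC-OG is lower.

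Levels were compared between genes per transcript length, in the deposited TPM summed over transcripts. In KPC-OG the order was Cd24a at 290 ± 106, Epcam at 164 ± 78.3, Prom1 at 134 ± 60.1, Ezr at 90.7 ± 43.6, Cd44 at 55.8 ± 29.0, Pigr at 52.1 ± 12.3, Msln at 16.4 ± 2.30, Bicc1 at 14.2 ± 7.11 and Pkhd1 at 10.03 ± 3.52 TPM (SD, n = 4). The only neighbours in this order whose ranges did not overlap were Pigr and Msln. In KPC it was Cd24a at 86.4 ± 12.5, Prom1 at 26.2 ± 4.46, Pigr at 22.9 ± 13.6, Epcam at 16.6 ± 3.54, Ezr at 7.91 ± 2.83, Cd44 at 5.59 ± 2.004, Pkhd1 at 3.96 ± 2.86, Bicc1 at 3.31 ± 0.697 and Msln at 2.92 ± 1.48 TPM (SD, n = 4). Cd24a stood clear of the next gene there, as Epcam did of Ezr, and the other neighbours overlapped. Epcam stood above Prom1 and Pigr in KPC-OG and below both in KPC, while Msln was above Bicc1 and Pkhd1 in KPC-OG and below both in KPC, though most of these neighbours overlapped. TPM is relative to the whole library, including Lars2, and 7 of the 9 genes were higher in KPC-OG without overlap on that scale, where 80.2% of all genes were.

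The genes also differed in how they varied over the 8 libraries. As the root mean square difference of log2 CPM profiles centred on each gene's mean, the closest pair was Epcam and Ezr (0.166), followed by Prom1 and Bicc1 (0.243) and Epcam and Cd44 (0.259), and the farthest was Cd44 and Pkhd1 (1.15). Among 13467 genes with established symbols, the profile closest to that of Epcam was Ptgr1 (0.129), to Cd44 Nbl1 (0.110), to Ezr C1s1 (0.107), to Prom1 Liph (0.0888), to Msln Tbxas1 (0.193), to Cd24a Shoc2 (0.0482), to Bicc1 Plekha6 (0.0729), to Pkhd1 Zfp398 (0.0697) and to Pigr Zfp963 (0.246). All profiles share the same 8 libraries and the difference between the groups, so these distances are a description with no test. None of the 9 genes had another of the 9 as its closest gene.

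**Figure D5:**
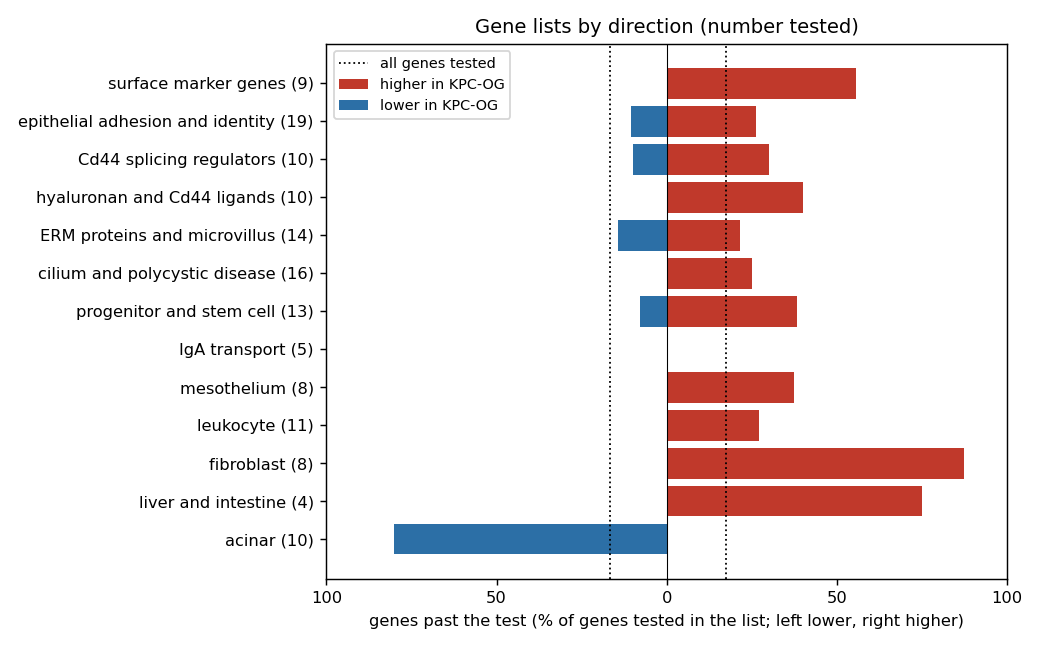
Share of the tested genes of each list that were higher (right) or lower (left) in KPC-OG, as a percent of the genes tested, with the number tested in brackets and the share over all genes as dotted lines at 17.4% and 16.6%. All 5 calls among the 9 surface marker genes are on the higher side, while 8 of 10 acinar genes are on the lower side.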

How the data were processed

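Ribosome-depleted total RNA of 8 samples of perfused, flash-frozen pancreas was the material sequenced, according to the labels. Sailfish 0.6.3, run by the authors per the file headers, quantified transcripts (k-mers of 20 bases, 1000 iterations, bias correction) on Ensembl release 76 mouse cDNA. The deposited estimated counts are reads that Sailfish assigned to each transcript, and the deposited TPM values are its length-adjusted abundances, scaled within a library. Roles of STAR 2.0.4b, bcl2fastq, limma and edgeR, named in the submitters' processing notes, are not given in the sources used here.

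Of 86127 transcripts, 83827 matched GENCODE M21 (GRCm38), and the 2300 others, with 1.45% to 3.04% of reads in KPC-OG and 3.93% to 4.23% in KPC, were left out. Estimated counts were summed over 29621 genes and rounded. Groups and replicate numbers came from the titles. The test was edgeR 4.0.16 quasi-likelihood (robust, R 4.3.3) after filterByExpr by group and TMM scaling, without a block, with Benjamini-Hochberg adjustment at 0.05 over 14267 genes, or 26789 transcripts. Standard errors are the log2 fold change over the root of F. No library pair of a group was a duplicate (chi-square per degree of freedom at least 14.7). Cd44 variable exons were taken from the annotated exon structure. Shares and ratios were compared by exact permutation (70 arrangements). Ratios were planned to be adjusted over 8, but are given with the adjustment over all genes. Alternatives were DESeq2 1.42.0, limma 3.58.1 (voom, and log2 TPM with pseudocounts of 1 and 0.1), other scalings, no filter on low counts, a length offset, Lars2 left out, each library left out and a replicate block.

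The 9 genes and the gene lists were chosen with earlier results of these data known. Named genes are the 9, up to 4 passing genes per list in order of adjusted p (at least 2, by level where fewer passed), transcripts with a mean share of at least 5% and the closest profile to each gene. Cdh1, Spint1, Prss8 and Krt5 were named outside this rule, after their values were seen. Promoter windows are from RefSeq (GRCm38.p6), 250 bases before to 50 after a start, with 7 windows for 6 of the 9 genes.

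On simulated data of this comparison with 13721 genes, edgeR recovered 58 of 100 genes planted with a 2-fold change and 98 of 100 with a 4-fold change, with 11 unchanged genes among 167 calls. For 21527 transcripts it recovered 8 of 100 at 2-fold, 52 of 100 at 4-fold and 85 of 100 at 16-fold. Limma-voom found 44 of the 2-fold and 96 of the 4-fold genes, and 6 of its 146 calls had no planted change. DESeq2 found more, 70 and 100, but 23 of its 193 calls had no planted change. Changes were planted in random directions, only in features above a set mean level, and all other features were left unchanged. The simulation thus did not cover low counts, or the many calls and the shift of the typical gene in the data, where recovery may differ.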

Additional observations from a re-analysis of the deposited data

Results flagged for a closer look

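In 36 sets of 4 libraries (the CPM of 9 genes and the reads per Epcam read of 8 genes, in each group, with the Cd44 share), 5 had a library far from the other 3 by Dixon's criterion, and all 5 were KPC-OG replicate 3. Chance flags about 1 in 20 such sets, and sets that share libraries and the Epcam denominator are not independent. For Epcam the library had 68.6 CPM, against 143 to 149 CPM in the other KPC-OG libraries. For Ezr it had 44.3 CPM, against 86.7 to 89.0 CPM. For Msln it was the high one, with 20.2 CPM, against 12.05 to 13.3 CPM. Per Epcam read it had 2.48 reads of Cd24a, against 1.45 to 1.52, and 0.295 reads of Msln, against 0.0845 to 0.0890. The same library had the highest summed level of acinar genes in KPC-OG, 167604 CPM, against 47071 to 86570 CPM in the other 3, and the cause of its distance was not tested.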

How the results depend on the processing

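The number of all genes called, 4859, was 13177 with library sizes only, 2317 with library sizes centred on the median gene (917 higher, 1400 lower), 13071 and 13021 with log2 TPM and a pseudocount of 1 or 0.1, and 2589 with log2 TPM centred on the median gene, an alternative chosen after seeing the data. The number of the 9 genes called, 5, was 9 with library sizes only and with TPM at both pseudocounts, 3 with library sizes centred and 3 with TPM centred. Leaving out each library in turn gave 3 to 5 of the 9 genes and 0 to 6 of their transcripts, against 3 transcripts with all libraries. Without KPC-OG replicate 3 the transcript count was 6, and without KPC-OG replicate 1, 2 or 4 it was 0. The 5 ratios to Epcam below the exact threshold were 3 without KPC-OG replicate 1 and 0 without both KPC-OG replicates 2 and 3, where no p can go below 0.0667. Without these 2 libraries Bicc1 passed (0.65, edgeR adjusted p = 0.0134) and Msln did not (0.86, edgeR adjusted p = 0.110). Prom1 also lost its call with a transcript length offset (adjusted p = 0.0698).

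Directions that turned were those of Pigr and Pkhd1 with library sizes only (1.25 and 1.22), with log2 TPM and a pseudocount of 1 (1.30 and 1.26) or 0.1 (1.35 and 1.49), of Pigr without KPC replicate 4 (-0.68 to 0.028 over the libraries left out in turn), of Cd24a without KPC replicate 3 (-0.041 to 0.16 likewise) and of the ratio of Ezr to Epcam with Krt8 and Krt18 as the denominator (0.29) or with TPM (0.25). With that keratin denominator Cd44 was higher without overlap (0.57, exact permutation p = 0.0286). Of 285 values of 17 single results under alternatives, 226 kept their direction and their side of the threshold, 39 lost it, 10 gained it and 10 turned. The calls of Epcam, Cd44 and Ezr were kept, and higher, under every alternative run on them. The Cd44 share difference ran from 2.31 to 8.23 percentage points and passed under none. The cause of these changes was not tested.

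Same-numbered libraries of the groups deviated together at r = 0.274, 0.275, 0.0385 and 0.0361. KPC-OG replicates 1, 2 and 4 were each closest to the KPC library of their own number. KPC-OG replicate 3 was closer to KPC replicate 2 (0.0546) than to its own number. The numbers were not taken as pairs in the main fit. With the replicate number as a block 5 of the 9 genes, 2 of their transcripts and 4895 genes were called. Permuting the shares and ratios within replicate numbers, an alternative chosen after seeing the data, allows no p below 0.125. The Cd44 share difference of 4.24 percentage points and the 5 lower ratios reached that p, so 0 ratios passed, and this design could not have called any.

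Depth limits the KPC values: Cd44 rested on 75 to 158 reads and Msln on 16 to 44 there.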
